A study of Homo sapiens with 23 samples.

Results

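Organic anion and cation uptake transporters are carriers of the SLCO and SLC22 families that bring bile acids, hormone conjugates, carnitine, monoamines and drugs into cells. Transcripts of 9 of them, SLCO1B1, SLCO1B3, SLCO2B1, SLCO4C1, SLC22A3, SLC22A5, SLC22A7, SLC22A9 and SLC22A18, were followed by mRNA-seq through 23 libraries of the integrated-gut-liver-on-a-chip. The 9 genes were taken by symbol out of 60564 genes listed in every table, and all 9 had a value in every library. The list of symbols was made with earlier results of these data known.

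The libraries came from Caco-2, a human colorectal adenocarcinoma line used as gut cells (11 libraries), and HepG2, a human hepatocellular carcinoma line used as liver cells (12 libraries). Each line was grown in its own chamber, either without the other line (mono-culture) or joined to it by circulating medium (co-culture). Treated cells received 1 mM FFAs, palmitic and oleic acid at 1:2, for 1 day, and control cells received none. The labels give medium with 10% FBS for growth and 0.5% FBS with the treatment, whereas the study's methods describe serum-free medium with BSA, so serum during treatment is unsettled for all groups. There were 3 libraries in each group except Caco-2 co-culture control, which had 2. Each line stands for 1 established cancer line and not for intestine or liver as such, and the labels do not say whether replicates came from separate cultures. The study's methods speak of repeated independent experiments for mRNA-seq and of biological replicates, without saying which libraries shared an experiment.

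Each table gives TPM, the level of a transcript relative to all transcripts of the library, scaled to transcript length, with the same total in every library. Read depth is therefore unknown here, and no counting interval can be given. Between 19259 and 23689 genes were above 0 in a library. The liver marker genes summed to 43057 to 65349 TPM in HepG2 and to 2364 to 4720 TPM in Caco-2, and the intestinal markers to 863 to 1157 TPM in Caco-2 and 155 to 245 TPM in HepG2. Caco-2 libraries thus held liver transcripts too, and none of the liver markers was at 0 there. Genes that were abundant in one line and near 0 in the other (34 for HepG2, 63 for Caco-2, picked from mono-culture controls at 50 TPM or more against 1 TPM or less) were used to follow RNA of the other line. In the co-cultured Caco-2 libraries the HepG2 genes stood at 0.0883% to 2.08% of their HepG2 level, with 2.08% in FFAs replicate 1 and 0.826% in control replicate 1, against at most 0.183% in mono-culture. In HepG2 the Caco-2 genes stood at 0.190% to 0.613% in co-culture and 0.127% to 0.242% in mono-culture.

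As background, uptake carriers sit in the plasma membrane and set how fast their substrates enter a cell. The SLCO carriers, also called OATPs, exchange bulky organic anions across the membrane. The SLC22 family holds cation carriers (OCTs), carnitine carriers (OCTNs) and anion carriers (OATs). In liver they line the blood-facing side of hepatocytes, and in gut some of them face the lumen.

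The levels of the uptake carriers differed between the 2 lines. SLCO2B1 dominated in Caco-2, at 518 ± 106 TPM (SD, n = 11), and SLC22A18 followed at 132 ± 15.3 TPM. In HepG2 the highest of the 9 was SLC22A3, at 46.7 ± 4.56 TPM (SD, n = 12), followed by SLC22A18 at 32.1 ± 8.47 TPM, SLCO4C1 at 18.5 ± 5.57 TPM and SLCO2B1 at 15.2 ± 5.55 TPM. SLCO1B1 and SLCO1B3, the carriers best known from hepatocytes, were at or near 0 in both lines.

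**Figure D1:**
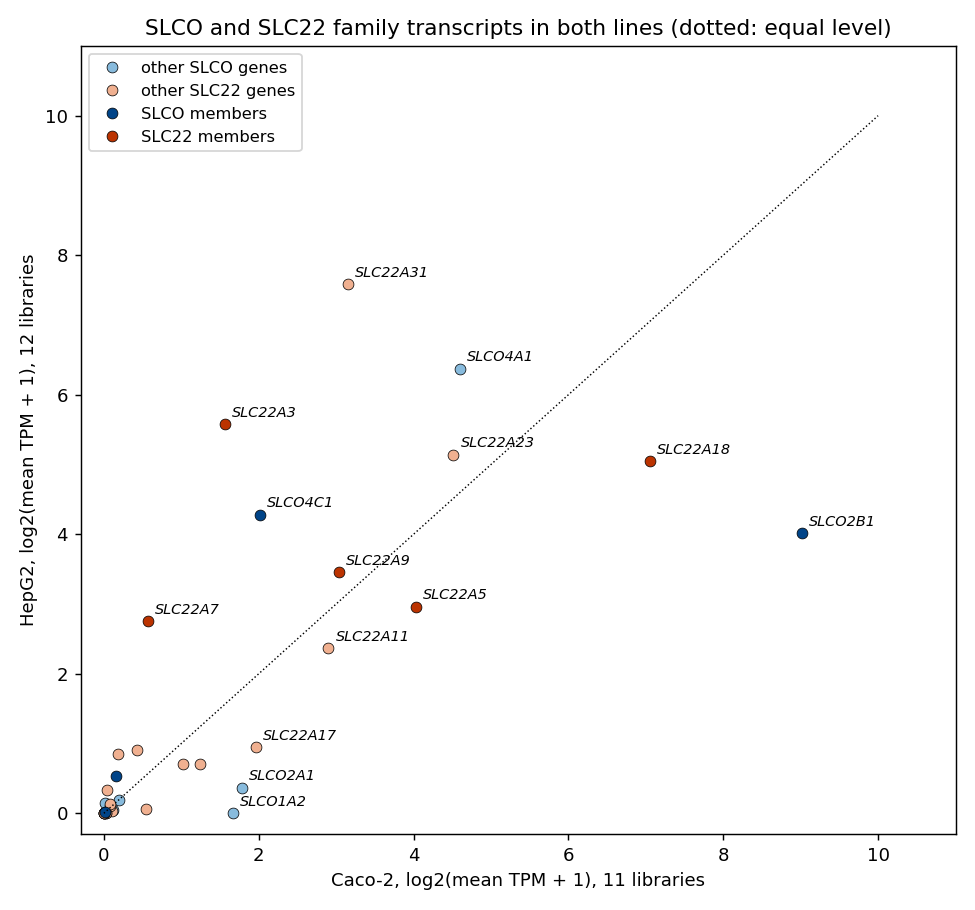
Mean level of each SLCO and SLC22 gene in Caco-2 (x axis) and HepG2 (y axis), both as log2 of mean TPM plus 1, with the 9 genes described here in dark colours and the other family genes in light colours; the dotted line marks equal levels. SLCO2B1 and SLC22A18 lie far to the right of the line, SLC22A3, SLC22A7 and SLCO4C1 lie above it, and SLC22A9 lies close to it.

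SLCO1B1 (chr12:21131194-21239796, plus strand, GENCODE annotation of GRCh38) and SLCO1B3 (chr12:20810702-20916911, plus strand) encode OATP1B1 and OATP1B3, which take up bile acids, conjugated bilirubin and statins in hepatocytes. SLCO1B1 was listed at 0 in 8 of 11 Caco-2 and 9 of 12 HepG2 libraries, and its highest values were 0.05 TPM in Caco-2 and 0.08 TPM in HepG2. SLCO1B3 ranged from 0 to 0.53 TPM in Caco-2 (median 0.03) and from 0 to 1.23 TPM in HepG2 (median 0.27). The only 2 libraries above 1 TPM for SLCO1B3 were co-cultured HepG2 libraries, control replicate 1 at 1.23 TPM and FFAs replicate 2 at 1.09 TPM, while the co-cultured HepG2 libraries otherwise began at 0.18 TPM. Neither gene reached a mean of 1 TPM in any group, so neither was tested. Both share stretches with a neighbour on the same strand, and the readthrough gene SLCO1B3-SLCO1B7 was at 0 to 0.25 TPM in HepG2.

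The 250 bases upstream of the RefSeq start (GRCh38.p14) were rich in A and T in both genes, with a GC content of 29.2% in SLCO1B1 and 28.4% in SLCO1B3, against a median of 58% over all windows of that length.

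SLCO2B1 (chr11:75100563-75206549, plus strand) encodes OATP2B1, which is found in both enterocytes and hepatocytes and takes up steroid sulfates and several oral drugs. In Caco-2 its level ran from 322 TPM (mono-culture FFAs replicate 1) over a median of 528 to 672 TPM, and in HepG2 from 9.18 over a median of 14.1 to 28.5 TPM (mono-culture FFAs replicate 2). Every Caco-2 library was above every HepG2 library, and the mean was 34.2 times higher in Caco-2. By itself SLCO2B1 made up 87.1% to 97.1% of the summed SLCO transcripts of a Caco-2 library. The share of Caco-2 marker RNA in a HepG2 library, multiplied by the SLCO2B1 level of Caco-2, came to 0.635 to 1.21 TPM in mono-culture and 0.947 to 3.05 TPM in co-culture, below the level measured in the same line and culture.

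The second of the RefSeq upstream windows of SLCO2B1 (250 bases, GRCh38.p14, plus strand, 5′ to 3′) is shown because of the upstream windows read here it was the only one that held the HNF4-specific element, and HNF4A was high in both lines, at 93.1 to 152 TPM in Caco-2 and 59.6 to 102 TPM in HepG2. Capitals mark the element, CAAAGTCCA, which lies on the opposite strand.
SLCO2B1, chr11:75159582-75159831: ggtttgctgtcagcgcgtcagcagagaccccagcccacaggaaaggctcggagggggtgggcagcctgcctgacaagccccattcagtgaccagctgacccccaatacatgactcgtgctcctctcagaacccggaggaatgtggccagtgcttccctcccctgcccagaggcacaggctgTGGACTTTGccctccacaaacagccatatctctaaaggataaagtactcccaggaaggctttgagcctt
It stood at -69 to -61 relative to the start, and 0.325% of 35116 upstream windows held it on either strand. A match of letters is a description of the window and not a bound site. The other SLCO2B1 window, and those of SLC22A5, SLC22A7, SLCO1B1, SLCO1B3 and SLCO4C1, did not hold it, and the windows of SLC22A3, SLC22A9 and SLC22A18 were not analysed here.

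SLCO4C1 (chr5:102233986-102296284, minus strand) encodes OATP4C1, known from kidney as a carrier of digoxin and thyroid hormone. It ranged from 1.44 to 4.41 TPM in Caco-2 (median 2.97) and from 12.2 to 29.5 TPM in HepG2 (median 17.7). The lines did not overlap, and the HepG2 mean was 6.09 times the Caco-2 mean. The lowest value in each line was mono-culture control replicate 3.

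Among the anion carriers, SLC22A7 (chr6:43295694-43305538, plus strand) encodes OAT2, a liver and kidney carrier of organic anions and cyclic nucleotides. It was at 0 to 1.44 TPM in Caco-2, where 1 of 11 libraries exceeded 1 TPM, and at 2.22 to 11.8 TPM in HepG2. The Caco-2 library above 1 TPM was co-culture FFAs replicate 1, the library with the most HepG2 marker RNA, for which share times level came to 0.156 TPM. SLC22A9 (chr11:63369785-63410294, plus strand) encodes OAT7, a hepatocyte carrier of sulfate conjugates. It was at 4.42 to 10.2 TPM in Caco-2 and 4.80 to 15.4 TPM in HepG2, so that the lines overlapped, with means of 7.21 ± 1.86 TPM (SD, n = 11) and 10.0 ± 3.62 TPM (SD, n = 12).

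SLC22A3 (chr6:160348378-160452577, plus strand) encodes OCT3, a low-affinity carrier of monoamines and other organic cations. Its level was 1.22 to 2.90 TPM in Caco-2 and 40.0 to 54.7 TPM in HepG2, 23.9 times higher on average, with no overlap. Of the 9 genes it varied least in HepG2, with an SD of 9.77% of its mean. In the Caco-2 library with the most HepG2 marker RNA, where SLC22A3 was at its highest in that line, share times level came to 0.949 TPM.

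SLC22A5 (chr5:132369710-132395613, plus strand) encodes OCTN2, the sodium-coupled carrier that brings in carnitine, the carrier molecule for long-chain fatty acids entering mitochondria. It was the only carnitine importer among the 9 and was higher in Caco-2, at 12.1 to 20.6 TPM against 4.33 to 9.23 TPM in HepG2, with a ratio of means of 2.25 and no overlap. SLC22A18 (chr11:2899721-2925246, plus strand) lies in an imprinted gene cluster, and its substrates are poorly known. It was at 103 to 161 TPM in Caco-2 and 20.2 to 48.2 TPM in HepG2, 4.12 times higher in Caco-2 on average, also with no overlap. SLC22A5 overlaps MIR3936HG and SLC22A18 overlaps SLC22A18AS on the opposite strand, and the library kit does not mark strand, so reads in shared stretches cannot be told apart. The overlapping genes were low, at 0.89 to 5.24 TPM for MIR3936HG and 1.62 to 7.29 TPM for SLC22A18AS over all libraries.

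**Figure D2:**
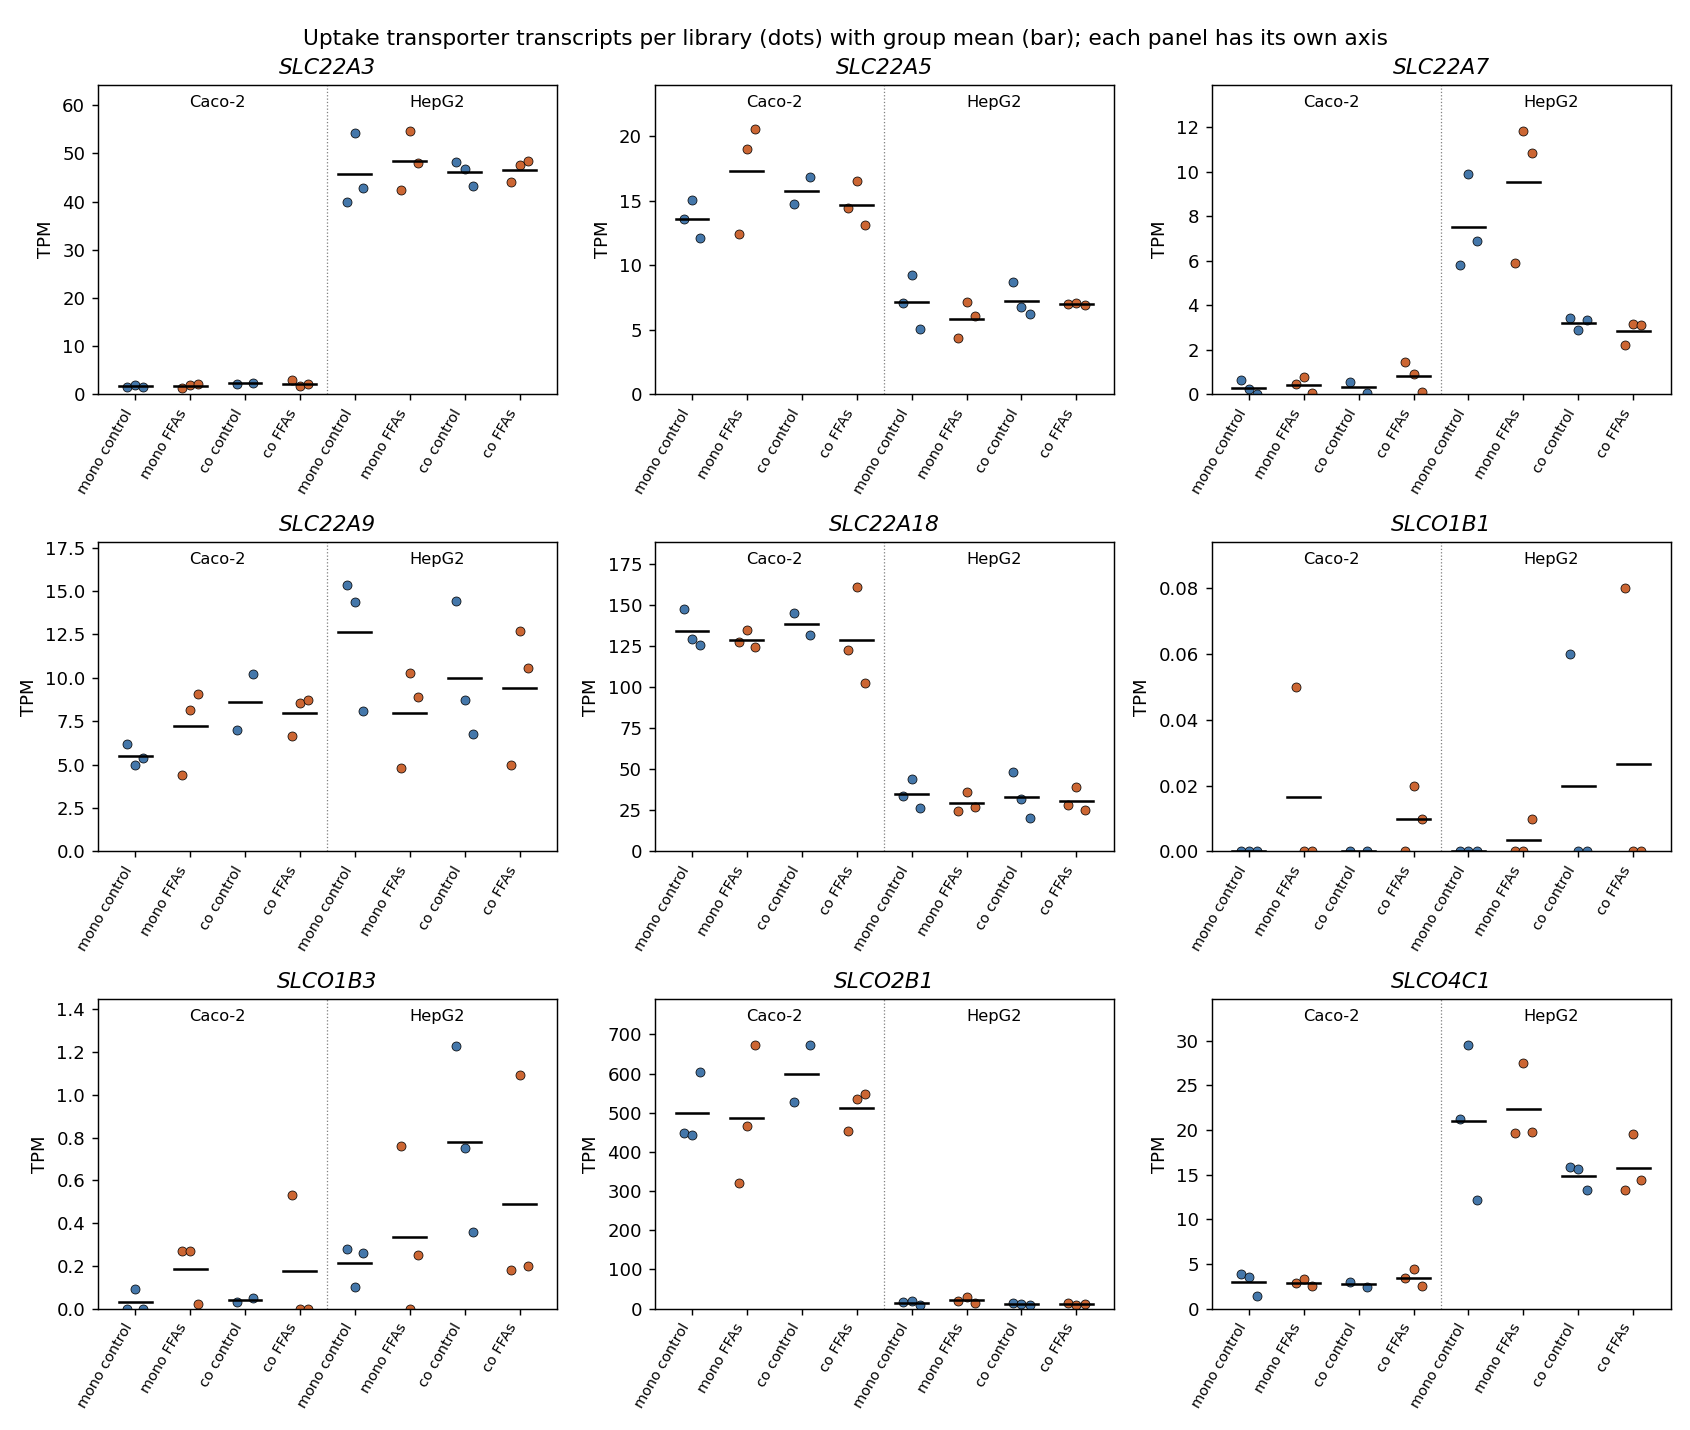
Level in TPM of each of the 9 genes in every library (dots; blue control, orange FFAs) with the group mean (bar), by line, culture and treatment; each panel has its own linear axis from 0. Caco-2 and HepG2 separate in SLCO2B1, SLCO4C1, SLC22A3, SLC22A5, SLC22A7 and SLC22A18, and co-cultured HepG2 lies below mono-cultured HepG2 in SLC22A7.

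For 6 of the 7 genes that passed the filter given next, the libraries of the lines did not overlap, against 42.7% of the genes tested between lines. SLCO1B1 and SLCO1B3, which did not pass it, overlapped. The levels were then compared between lines by limma on log2(TPM + 1), fitted over the 16495 genes that averaged 1 TPM or more in any of the 8 groups, with Benjamini-Hochberg adjusted p under 0.05 as the call. On this scale the change of low genes is understated. Of the 9 genes 7 passed the filter. SLC22A7 did so only through HepG2 groups, so it had to differ, and no count over the 7 genes is offered as support. In mono-culture controls all 7 tested genes were called, 4 higher in HepG2 and 3 lower, where 62.4% of all genes were called, 23.4% higher and 39.0% lower in HepG2. The median log2 difference was 1.02 over the 7 genes, which is the value of SLC22A9, and -0.20 over all genes tested. In the other conditions the median over the 7 genes was 0.13 (mono-culture FFAs), 0.15 (co-culture controls) and 0.14 (co-culture FFAs), again the values of SLC22A9.

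SLCO2B1 was lower in HepG2 by a log2 difference of -4.99 (SE 0.28, limma adjusted p = 7.56e-12), SLC22A18 by -1.95 (SE 0.25, adjusted p = 1.20e-06) and SLC22A5 by -0.87 (SE 0.20, adjusted p = 0.00104). SLC22A3 was higher in HepG2 by 4.13 (SE 0.16, adjusted p = 3.36e-14), SLC22A7 by 2.73 (SE 0.30, adjusted p = 1.82e-07) and SLCO4C1 by 2.46 (SE 0.28, adjusted p = 2.50e-07). SLC22A9 was higher by 1.02 (SE 0.34, adjusted p = 0.0127) in this condition, with the largest adjusted p of the 7.

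The first 6 of these genes were called in the same direction in the other 3 conditions, where 61.1% (mono-culture FFAs), 58.8% (co-culture controls) and 61.0% (co-culture FFAs) of all genes were called. SLC22A9 was not called there, with log2 differences of 0.13, 0.15 and 0.14 and 95% confidence intervals that together ran from -0.63 to 0.94. Its call in mono-culture controls also ended without HepG2 mono-culture control replicate 1 (0.86, limma adjusted p = 0.0576). The difference for SLC22A7 was 2.73 and 2.86 in mono-culture, but 1.72 and 1.13 in co-culture, in controls and FFAs respectively. The last of these calls ended when all libraries numbered 3 were left out (0.76, limma adjusted p = 0.0751). SLC22A7 passed the filter only through HepG2 groups, so its calls between lines are not offered as support.

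**Figure D3:**
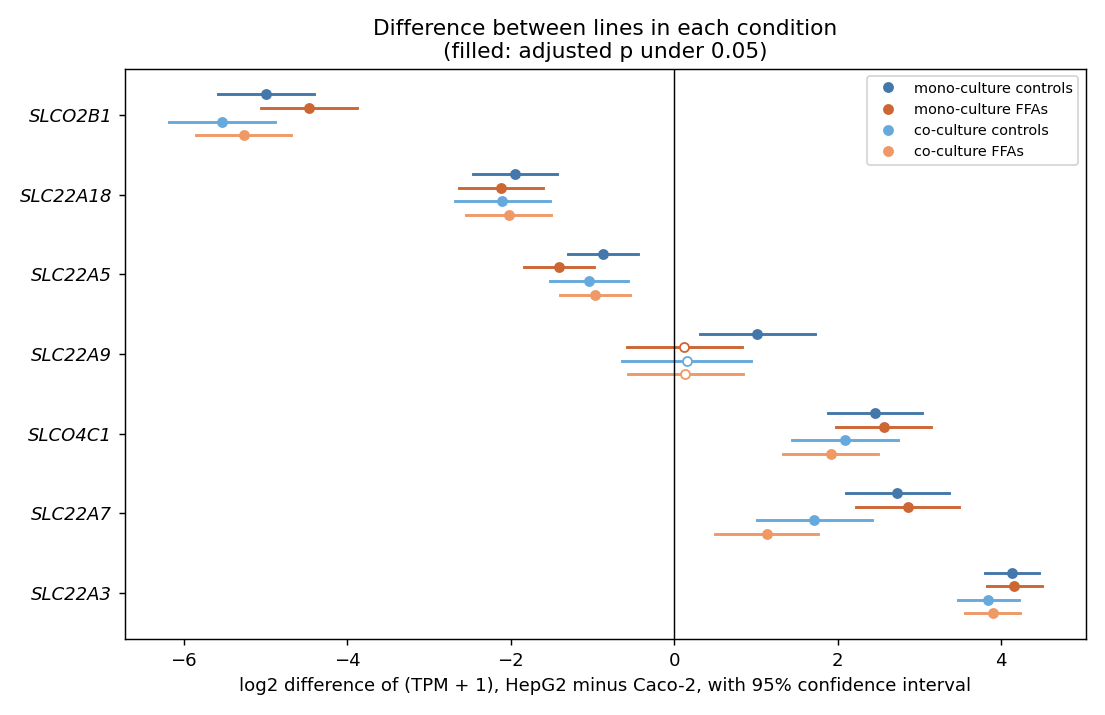
Difference between lines for the 7 tested genes, as log2 of TPM plus 1 in HepG2 minus Caco-2 (x axis), with the 95% confidence interval as a line, in 4 conditions of culture and treatment; filled points have an adjusted p under 0.05. SLCO2B1 lies near -5 and SLC22A3 near 4 in every condition, and SLC22A9 passes the test in mono-culture controls alone.

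The other genes of the same transport system were compared in mono-culture controls, where the counts called are to be read beside the 62.4% of all genes called (23.4% higher and 39.0% lower in HepG2). Here too a gene that reached a group mean of 1 TPM in one line alone had to differ. Of the genes named below, this held for SLCO1A2, SLCO2A1 and SLC10A1, through Caco-2, and for NR1H4, through HepG2. Of 8 other SLCO genes 3 were tested and all 3 were called in mono-culture controls. SLCO4A1, a carrier of thyroid hormone and prostaglandins, was higher in HepG2 (log2 difference 1.59, limma adjusted p = 0.00299), while SLCO1A2, a bile acid carrier (-1.42, adjusted p = 7.28e-07), and SLCO2A1, a prostaglandin carrier (-1.40, adjusted p = 4.52e-05), were lower. Of 18 other SLC22 genes 8 were tested, and 3 were higher and 1 lower, a smaller share than over all genes. SLC22A31 was the furthest apart, at 143 to 227 TPM in HepG2 against 4.81 to 12.3 TPM in Caco-2 (log2 difference 4.90, limma adjusted p = 2.03e-13), and it held 51.6% to 64.1% of the summed SLC22 transcripts of a HepG2 library. SLC22A23 was higher by 0.71 and SLC22A17 lower by a log2 difference of -0.85.

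Of 7 transporters that work beside the 9 genes, 5 were tested, 2 higher and 3 lower in HepG2. SLC47A1, which encodes the cation exporter MATE1, was at 59.3 to 96.6 TPM in HepG2 against 0.35 to 2.13 TPM in Caco-2 (log2 difference 5.62, limma adjusted p = 7.23e-14). SLC10A1, which encodes the hepatocyte bile acid importer NTCP, was higher in Caco-2 (3.51 to 7.46 TPM) than in HepG2 (0 to 0.13 TPM; log2 difference -2.50, limma adjusted p = 1.25e-09). SLC51B, the beta subunit of the bile acid exporter, was also higher in Caco-2 (-2.13, adjusted p = 0.000746).

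Of 7 transcription regulators all were tested and 4 were higher in HepG2, with none lower, so that the share called was near that over all genes. The bile acid receptor NR1H4 (FXR) differed most, at 0.02 to 1.03 TPM in Caco-2 and 24.1 to 57.5 TPM in HepG2 (log2 difference 5.06, limma adjusted p = 1.81e-12). The drug-sensing receptor NR1I2 (PXR) was higher by 3.58 (adjusted p = 9.09e-09) and the fatty acid receptor PPARA by 0.68 (adjusted p = 0.00697). HNF4A did not pass the test between lines in this condition (log2 difference -0.24, limma adjusted p = 0.234). Of 7 carnitine genes 6 were tested, and 1 was higher and 4 lower in HepG2. SLC25A20, the mitochondrial carrier of acylcarnitines, was lower by a log2 difference of -0.98 (limma adjusted p = 0.000603) and the peroxisomal acyltransferase CROT by -1.03 (adjusted p = 0.000274), as was the importer SLC22A5, while the acetyltransferase CRAT was higher by 0.90 (adjusted p = 1.47e-05).

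Co-culture was next set against mono-culture within each line, to ask whether a circulating partner line changed the carriers. In HepG2, SLC22A7 was lower in co-culture. Its level was 5.80, 9.88 and 6.90 TPM in mono-culture control replicates 1 to 3 and 5.90, 11.8 and 10.8 TPM in mono-culture FFAs replicates 1 to 3. In co-culture it was 3.43, 2.88 and 3.36 TPM in control and 2.22, 3.17 and 3.13 TPM with FFAs. All 6 co-cultured libraries were below all 6 mono-cultured ones, under control and FFAs alike. In bulk RNA, fewer cells with the transcript and less transcript per cell cannot be told apart. Caco-2 marker RNA in the co-cultured HepG2 libraries was at most 0.613%, and the liver markers of HepG2 summed to 43057 to 58986 TPM in co-culture and 53979 to 65349 TPM in mono-culture, a shift whose part in the result was not tested.

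Averaged over treatments, SLC22A7 had 3.03 ± 0.44 TPM in co-culture and 8.52 ± 2.64 TPM in mono-culture (SD, n = 6 each), a ratio of 2.81. The log2 difference was -1.20 (SE 0.18, 95% confidence interval -1.59 to -0.81, limma adjusted p = 0.0478). It was 1 of 8 genes called among 14255 tested (0.0561%), of which 4 were lower in co-culture (0.0281%). Groups that did not overlap in this way were found for 1.35% of the genes tested. The call rests on a narrow margin. It ended when any one HepG2 library other than mono-culture FFAs replicate 1 was left out (over all 12 fits, log2 differences of -1.34 to -1.11 and limma adjusted p from 0.0276 to 0.126), and without all libraries numbered 3 (-1.21, adjusted p = 0.114).

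The contrast did not pass in either treatment taken alone, with log2 differences of -0.99 in controls (limma adjusted p = 0.574) and -1.41 with FFAs (adjusted p = 0.398), in fits where 0% of all genes were called. In Caco-2 SLC22A7 did not reach a group mean of 1 TPM and was not tested. The difference of the culture effect between lines, a contrast added after the values were seen, was -1.37 (SE 0.31, limma adjusted p = 0.0514) and did not pass, where 0.533% of 16495 genes did. SLC22A7 entered this contrast only through HepG2 groups. Its Caco-2 group means were at most 0.827 TPM, so a fall like that in HepG2 could not have shown there. The contrast therefore cannot decide whether the lines differ in their response to culture. Of 31 alternatives, 6 made the contrast pass and 25 did not. It passed with the replicate number as a block (limma adjusted p = 0.0361), with the filter at 5 TPM (0.0443) and under median-of-ratios scaling (0.0476). It also passed when one of these libraries was left out: Caco-2 co-culture FFAs replicate 3, HepG2 mono-culture control replicate 3 or HepG2 mono-culture FFAs replicate 1 (adjusted p of 0.0238 to 0.0418). The largest adjusted p was 0.291, at a pseudocount of 0.1.

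SLC22A7 overlaps CRIP3, a gene on the opposite strand, and reads from the shared stretch cannot be assigned by strand. In HepG2, CRIP3 was at 5.22, 6.24 and 5.97 TPM in mono-culture controls, 6.30, 4.31 and 4.71 TPM in mono-culture with FFAs, 5.04, 4.92 and 1.94 TPM in co-culture controls and 9.11, 5.84 and 2.58 TPM in co-culture with FFAs. Its groups overlapped, and its log2 difference between cultures was -0.24 (limma adjusted p = 0.75). In Caco-2 it was at 0 in all libraries but one, at 0.36 TPM.

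**Figure D4:**
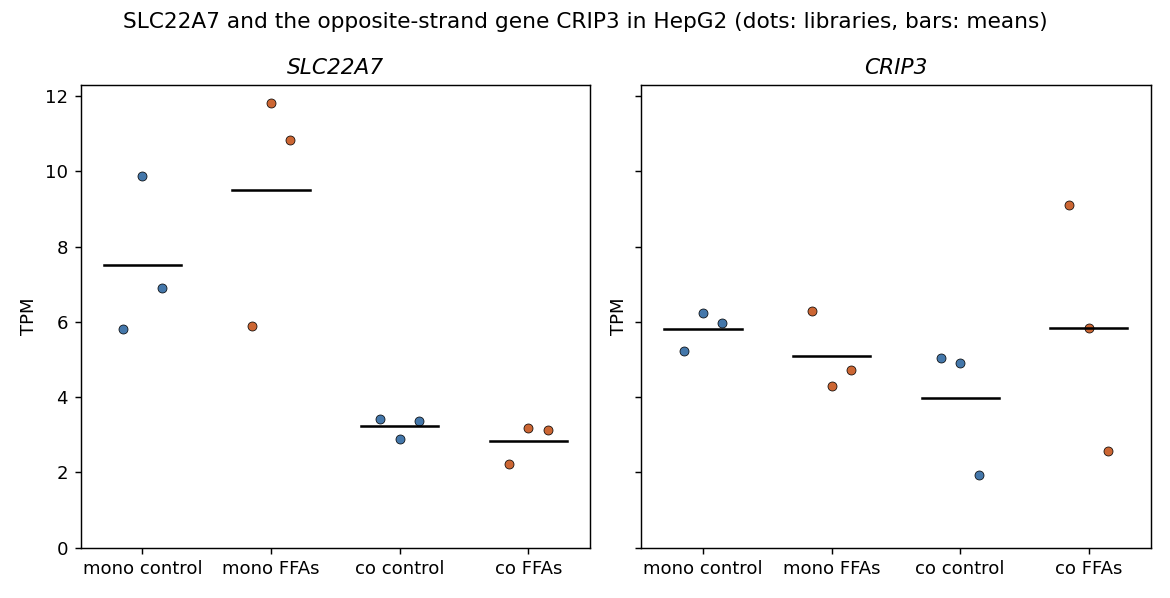
Level in TPM of SLC22A7 (left) and of the opposite-strand gene CRIP3 (right) in the 12 HepG2 libraries (dots; blue control, orange FFAs), with group means as bars. SLC22A7 lies between 2.22 and 3.43 TPM in co-culture and between 5.80 and 11.8 TPM in mono-culture, whereas CRIP3 overlaps between cultures.

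SLCO2B1 and SLCO4C1 were also lower in co-cultured HepG2, but did not pass. SLCO2B1 had 12.2 ± 1.91 TPM in co-culture and 18.1 ± 6.59 TPM in mono-culture (SD, n = 6 each), a log2 difference of -0.47 (95% confidence interval -0.92 to -0.01, limma adjusted p = 0.385). SLCO4C1 had 15.3 ± 2.35 and 21.6 ± 6.23 TPM, a log2 difference of -0.43 (-0.85 to -0.02, adjusted p = 0.375). In both genes mono-culture control replicate 3 was below every co-cultured library, so the cultures overlapped over both treatments. With FFAs alone SLCO4C1 did not overlap, at 13.3 to 19.5 TPM in co-culture and 19.6 to 27.5 TPM in mono-culture. No share over all genes was taken for single treatments. At an unadjusted p under 0.05, 3 of the 7 genes tested would pass, against 12.5% of all genes tested. The other 4, SLC22A3, SLC22A5, SLC22A9 and SLC22A18, had log2 differences between -0.07 and 0.14. SLC22A3 was the most tightly bounded, at -0.01 with an interval of -0.22 to 0.20.

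In Caco-2 6 of the 9 genes were tested, and none was called between cultures by limma, averaged over treatments or with FFAs (0% of 15081 genes called) or in controls (0.0199%). None of the 6 had an unadjusted p under 0.05, as against 10.5% of all genes averaged over treatments, 6.09% with FFAs and 5.43% in controls. The averaged log2 differences lay between 0.003 for SLC22A5 and 0.36 for SLC22A9, with confidence intervals that together ran from -0.37 to 0.74. Over both treatments none of the 6 separated by culture, against 1.38% of the genes tested in Caco-2. In controls alone, with 2 co-cultured and 3 mono-cultured libraries, SLC22A3 and SLC22A9 did not overlap, and no share over all genes was taken. For the gene that dominates the line, SLCO2B1, the averages were 548 ± 78.5 TPM in co-culture (SD, n = 5) and 492 ± 126 TPM in mono-culture (SD, n = 6), a log2 difference of 0.20 (interval -0.17 to 0.57, limma adjusted p = 0.695). Without both co-cultured libraries numbered 1, which held the most HepG2 marker RNA, none was called either.

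The FFAs were the study's main treatment, and none of the 9 genes was called between FFAs and control in either line. Averaged over cultures, limma called 0% of genes in both lines, and no tested gene of the 9 had an unadjusted p under 0.05, where 3.99% of all genes in Caco-2 and 3.49% in HepG2 did. In Caco-2 the log2 differences ran from -0.15 (SLCO2B1) to 0.14 (SLCO4C1), with intervals that together spanned -0.52 to 0.58. In HepG2 they ran from -0.35 (SLC22A9) to 0.24 (SLCO2B1), with intervals spanning -0.94 to 0.70. For SLC22A7 in HepG2 the difference was 0.07 (interval -0.33 to 0.46). The carnitine importer SLC22A5 differed by 0.10 in Caco-2 (-0.19 to 0.40) and -0.13 in HepG2 (-0.47 to 0.21). None of the tested genes separated by treatment, against 0.424% of the genes tested in Caco-2 and 0.0982% in HepG2.

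Within each culture the FFA contrasts called none of the 9 genes either, where 0.0199% of all genes were called in co-cultured Caco-2 and 0% in the other 3 sets. The difference of the FFA effect between cultures was not called for any of them in either line (0% of all genes). For SLC22A7 in HepG2 it was -0.42 (interval -1.21 to 0.36). No gene of the other SLCO, other SLC22, partner, regulator or carnitine lists was called in an FFA or culture contrast.

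**Figure D5:**
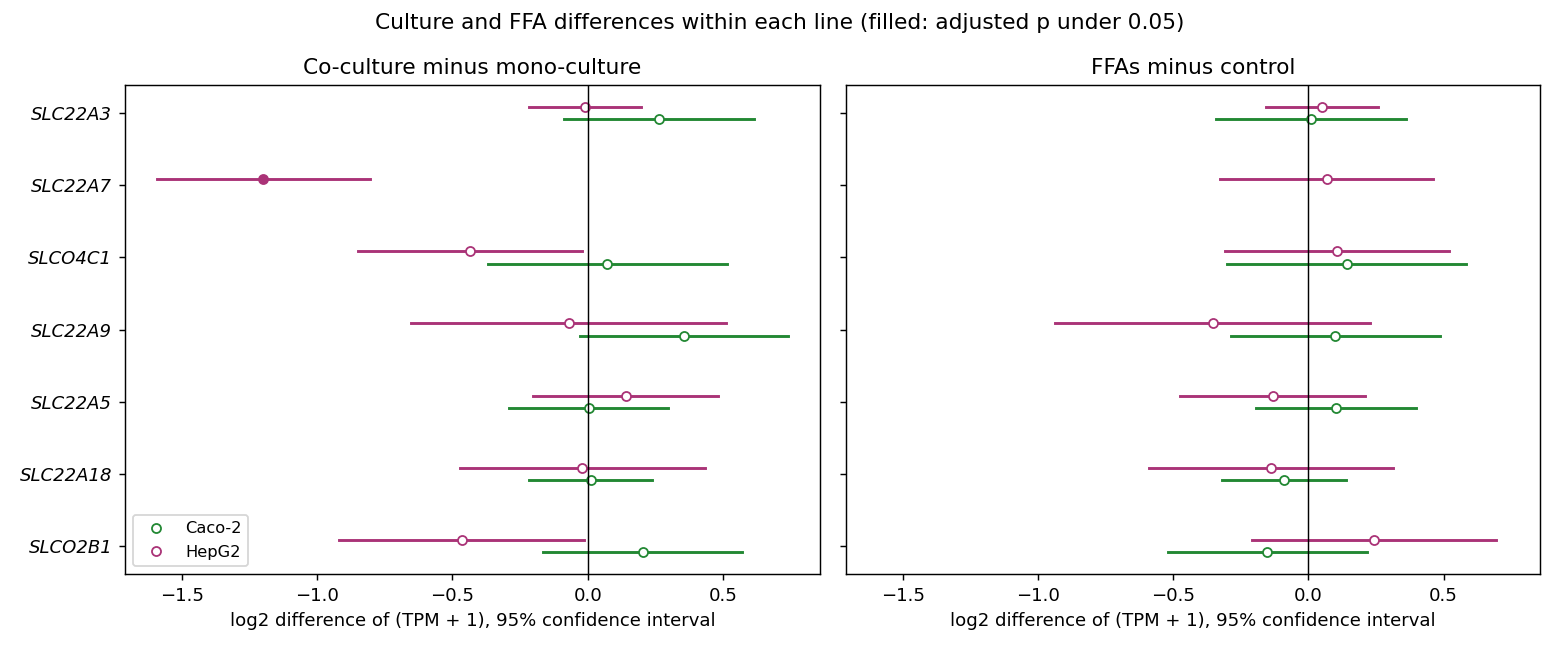
Differences within each line for the tested genes, as log2 of TPM plus 1 with the 95% confidence interval as a line: co-culture minus mono-culture averaged over treatments (left) and FFAs minus control averaged over cultures (right), Caco-2 in green and HepG2 in purple. The 1 filled point, with an adjusted p under 0.05, is SLC22A7 in HepG2 at -1.20.

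For mono-culture against co-culture the study used a separate test on read counts, which was not run here. Its criteria for taking in FFA treatment were an analysis of variance with p under 0.05 and a 1.2-fold difference. Applied over the 4 groups of a line, with unadjusted p and group means, they selected none of the 9 genes in Caco-2 (3.08% of 31100 genes). In HepG2 they selected 1 (3.56% of 29942 genes). That gene was SLC22A7. After Benjamini-Hochberg adjustment it no longer met them.

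The order of group means reflects the same pattern. For SLC22A7 the 8 groups fell in the order mono-cultured HepG2 with FFAs (9.52 TPM) and without (7.53 TPM), co-cultured HepG2 without (3.22 TPM) and with FFAs (2.84 TPM), then the Caco-2 groups (0.827 to 0.287 TPM). Neighbours overlapped except between mono-cultured and co-cultured HepG2 and between co-cultured HepG2 and Caco-2. For SLCO2B1 and SLC22A5 the only neighbours apart were the lowest Caco-2 and the highest HepG2 group. For SLC22A9 the group means ran from 12.6 to 5.52 TPM, with HepG2 groups in the first 3 places and Caco-2 groups in the last 3, and all neighbours overlapped.

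The genes that followed the leading carrier of each line most closely were found by Pearson correlation of log2(TPM + 1) over libraries, as a description. In Caco-2, SLCO2B1 was followed by AFDN (r = 0.975), GLG1 (0.957) and CRNDE (0.956) over 11 libraries and 14130 genes. In HepG2, SLC22A3 was followed by DIS3L (r = 0.903), TTC37 (0.897) and PRH1 (0.883) over 12 libraries and 13441 genes. The points share replicate numbers, and the coefficients are the highest of many.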

How the data were processed

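RNA of Caco-2 and HepG2 cells was amplified with SMART-Seq v4 and sequenced on a NovaSeq with a kit that does not mark strand. Per the labels and the study's methods, the authors removed rRNA, tRNA and mitochondrial reads with Bowtie2 2.1.0, aligned to GRCh38 with STAR 2.7.1a and deposited RSEM 1.3.0 TPM per gene, without a filter. Because TPM keep no depth, count models were not used. The labels' extraction text names another cell type than the lines, and the cell line labels were followed.

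Groups came from the labels. Values were set to log2(TPM + 1), kept where a group mean reached 1 TPM, and fitted with limma 3.58.1 (R 4.3.3, trended eBayes) once over both lines and once per line, adjusted over all genes tested. The method was tested on simulated data. The genes described and the lists beside them were chosen with earlier results of these data known. An item of the lists is not reported here. At most 3 called genes per list were named, those furthest apart between lines. Alternatives changed the pseudocount (0.1), filter (none, 5 TPM), scaling (median of ratios, quantile), trend, groups in the fit, replicate block and each library in turn. Upstream sequences were from RefSeq (GRCh38.p14) and gene positions from GENCODE.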

Additional observations from a re-analysis of the deposited data

How the results depend on the processing

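For SLC22A7 in co-cultured against mono-cultured HepG2, the log2 difference kept its sign under all 20 alternatives, from -1.42 to -1.11, but the call ended under 15 of them. Beside the leave-one-out fits (-1.34 to -1.11, with 0 or 1 of the 9 genes called) these were no filter (-1.20, limma adjusted p = 0.127, 0 genes of the 9 called), quantile normalization (-1.13, adjusted p = 0.0543, 0 called), eBayes without trend (-1.20, adjusted p = 0.0654, 0 called) and, chosen after seeing the data, leaving out all libraries numbered 3 (-1.21, 0 called). It was 1 of 8 genes called in all, against 492 with the replicate block, 22 at 5 TPM, 12 at a pseudocount of 0.1, 4 under quantile normalization or without trend, and 1 without a filter. The labels do not say what a replicate number shares. Correlations of same-numbered deviations were -0.0926 to 0.312 in Caco-2 and 0.0284 to 0.601 in HepG2, and 7 of 15 and 15 of 18 pairs were over 0.1. Their medians were 0.088 and 0.305, against -0.119 and -0.226 between different numbers. Deviations within a group sum to 0, so the values between different numbers are tied to the same-numbered ones and give no separate reference. In HepG2 the correlations of same-numbered libraries were all above 0, and in most pairs over 0.1. With the replicate block 1 of the 9 genes was called for this contrast (SLC22A7, limma adjusted p = 0.00837), and 1 for the difference of the culture effect between lines (adjusted p = 0.0361, 344 genes in all against 88). SLC22A7 was also called for that difference at 5 TPM and under median-of-ratios scaling (1 of the 9 each), and leaving out single libraries gave 0 or 1. Its Caco-2 group means were at most 0.827 TPM, and the contrast was added after the values were seen. For this gene it therefore cannot decide whether the lines differ in their response to culture. SLC22A7 was not called for that difference at a pseudocount of 0.1 (-1.86, limma adjusted p = 0.291) or without a filter (-1.37, adjusted p = 0.106). Without all libraries numbered 3 SLC22A7 was not called either (-1.34, adjusted p = 0.0648), and the 1 gene called there was SLCO2B1 (-1.07, adjusted p = 0.0351, against -0.67 and 0.283 with all libraries). With the block the averaged culture contrast called 60 genes in Caco-2 against 0. The analysis-of-variance criteria selected 0 to 1 of the 9 genes in Caco-2 and 1 to 2 in HepG2 when single libraries were left out (SLC22A5 without mono-culture FFAs replicate 1, SLCO4C1 without mono-culture control replicate 3), and 0 in HepG2 with adjusted p.

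Signs turned for differences that were near 0 and not called. Leaving out single libraries moved SLC22A9 between lines from -0.15 to 0.41 (mono-culture FFAs; also -0.06), from -0.12 to 0.40 (co-culture controls; also -0.09) and from -0.10 to 0.50 (co-culture FFAs). It moved the FFA difference in HepG2 SLC22A7 from -0.016 to 0.21 (also -0.007; -0.025 without all libraries numbered 3) and that of SLCO4C1 in Caco-2 from -0.016 to 0.23. CRIP3 between cultures in HepG2 was 0.13 without all libraries numbered 3. The cause was not tested in any of these. Line differences of the other 6 tested genes kept their sign under all alternatives. Depth is unknown, so levels under 1 TPM cannot be given a detection limit, and 2 or 3 libraries a group leave intervals of the size printed.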

Other observations

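The place of the libraries that carried replicate number 3 within their group was read for the tested genes. In a group of 3, an end is a more common place than the middle. In the 7 groups of 3 libraries, number 3 was the lowest of its group in 6 for SLC22A18, where 9.0% of 16495 genes were lowest in 6 or more. It was the lowest in 5 for SLCO4C1 and SLC22A5, where 19.4% of genes were lowest in 5 or more. For SLCO2B1 it was the highest in all 3 such Caco-2 groups and the lowest in 3 of 4 HepG2 groups, and no share over all genes was taken for this. SLC22A3 was at an end in 3 groups, SLC22A7 in 3 (none of them HepG2) and SLC22A9 in 4. What the number stands for is not given in the labels, and its part in these values was not tested.

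SLC22A7 with FFAs against control had the opposite sign in the cultures of HepG2, 0.28 in mono-culture and -0.14 in co-culture, and the difference between them did not pass (limma adjusted p = 1.00).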
